A study of Mus musculus with 6 samples.

Results

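Papola, Tut1, Tut7 and Tent4b encode 4 enzymes that add nucleotides to the 3′ ends of RNA, and their messages were measured in bone marrow of mice with acute myeloid leukemia. The 4 genes were taken by symbol from the deposited table of 9295 genes, and all 4 were found and passed the filter on low counts, among 8358 genes tested. The 6 libraries form 2 groups by their titles and genotype labels. The 3 libraries labelled KO have the genotype label PAPOLA KO, a knockout, and the 3 labelled Con the label PAPOLA flox/flox, that is, alleles flanked by recombination sites. All 6 come from bone marrow with the cell type given as leukemia. The labels name no driver of the leukemia, no Cre line that made the knockout, no strain, age or sort of cells, and do not state whether each library came from its own animal. Where libraries shared an animal, p-values reflect technical spread at most.

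Poly(A) polymerase alpha, the product of Papola, makes the poly(A) tail of most messenger RNA in the nucleus, once the transcript has been cleaved at its 3′ end. Terminal nucleotidyltransferases are a wider family of related enzymes that extend RNA ends in other settings. TUT1, also called Star-PAP, adds uridines to the end of the spliceosomal RNA U6 and also polyadenylates a set of messages in the nucleus. TUT7 adds uridines in the cytoplasm, to messages that have lost most of their tail and, together with LIN28A, to precursors of the microRNA let-7, and both marks lead to decay. TENT4B, also called PAPD5, works with the nuclear exosome, tagging aberrant or immature nuclear RNA with short tails, and can also extend tails of messages with mixed nucleotides.

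The 2 groups differed at most genes, which sets the scale for any single gene. Of the 8358 genes tested, 82% passed an adjusted p of 0.05 (edgeR quasi-likelihood test, Benjamini-Hochberg adjustment over all genes tested), 39.6% as higher and 42.4% as lower in the libraries labelled KO. After TMM scaling, a correction for libraries of different make-up, the KO and Con values did not overlap in 84.5% of genes. By library totals alone, 29.8% of genes passed as higher and 53.6% as lower, and of the 4 members Tut7 passed as higher and Tut1 and Tent4b as lower. Counts summed to 8875022 to 9768143 per library labelled KO and to 11253932 to 11436216 per library labelled Con. Within a group, pairs of libraries differed by a chi-square of 17.7 to 23.7 per degree of freedom, except Con replicates 2 and 3, at 1.68. Those 2 libraries stand closer to each other than any other pair, and results are also given with them summed. Marker genes of several blood cells moved with the groups. All 14 late neutrophil markers were higher in the libraries labelled KO, where they summed to 15.5% to 17.9% of counts, against 0.911% to 0.986% in those labelled Con. All 10 erythroid markers tested were higher too (1.49% to 2.16% of counts in KO, against 0.00737% to 0.0143% in Con), and all 7 macrophage markers were lower (0.0365% to 0.0679% in KO, against 2.23% to 3.2% in Con). Of 8 T and NK cell markers 7 were higher in KO, yet their summed share was lower, at 0.0158% to 0.0168% of counts in KO, against 0.0329% to 0.0575% in Con. The marker that was lower, the cytotoxic protease Gzmb, averaged 7.10 counts-per-million (CPM, TMM scaling) in KO and 302.8 CPM in Con. Most of the macrophage sum in Con came from Gpnmb and Mmp12, at 14060 and 8292 CPM (8.26 and 1.49 CPM in KO). The macrophage list does not stand for all macrophage or monocyte genes. Outside it, Apoe (649.8 CPM in KO, 7.11 CPM in Con) and Adgre4 (46.94 CPM in KO, 0.13 CPM in Con) were higher in KO. Of 3 B cell markers 2 were higher, and of 5 leukemia and progenitor markers 1 was higher and 3 lower (0.0231% to 0.0283% of counts in KO, against 0.023% to 0.0281% in Con). No marker in the table was at 0 in every library of a group. In such bulk samples a change in the number of cells of a type and a change in RNA per cell cannot be told apart, and the part of these markers in the results on the 4 genes was not tested.

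Tut1, the U6 uridylyltransferase, was the member with the largest change and was lower in the libraries labelled KO. It had 169, 119 and 136 counts in KO replicates 1, 2 and 3, against 834, 655 and 691 in Con replicates 1, 2 and 3. After TMM scaling these are 19.8, 14.7 and 17.5 CPM in KO, against 63.2, 51.5 and 55.3 CPM in Con. Every KO library lay below every Con library, and the highest KO value was below the lowest Con value by a wide margin. The level averaged 17.3 ± 2.54 CPM in KO and 56.6 ± 5.97 CPM in Con (SD, n = 3 each). KO over Con came to a log2 fold change of -1.71 (SE 0.13, 95% interval -2.00 to -1.41, adjusted p = 1.66e-06), so Tut1 was 3.27-fold lower in KO. A change of at least this size, in either direction, was seen in 26.9% of all genes tested, and 13.4% had a log2 fold change as low or lower.

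Tut7, the cytoplasmic uridylyltransferase, went the other way. It had 2224, 2045 and 2588 counts in KO replicates 1, 2 and 3, against 1769, 1646 and 1597 in Con replicates 1, 2 and 3, so that it was higher even in raw counts, although the libraries labelled KO were the smaller ones. The scaled values were 259.9, 252.3 and 333 CPM in KO, against 134, 129.3 and 127.7 CPM in Con. All 3 KO libraries lay above all 3 Con libraries, and KO replicate 3 stood highest. The level averaged 281.7 ± 44.6 CPM in KO and 130.4 ± 3.27 CPM in Con (SD, n = 3 each). This is a log2 fold change of 1.11 (SE 0.11, 95% interval 0.86 to 1.36, adjusted p = 1.04e-05), a level 2.16-fold higher in KO. Of all genes tested, 21.1% rose by as much or more. A long non-coding gene, Etohd2, overlaps Tut7 in the RefSeq annotation of GRCm38.p6, and since nothing states whether counting used strand, reads of the 2 genes could have been mixed.

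Tent4b, the partner of the nuclear exosome, was slightly lower in the libraries labelled KO. It had 520, 572 and 591 counts in KO replicates 1, 2 and 3, against 1129, 1070 and 1078 in Con replicates 1, 2 and 3. The scaled values were 60.8, 70.6 and 76.1 CPM in KO, against 85.5, 84.1 and 86.2 CPM in Con. The groups did not overlap, and KO replicate 3 came nearest to Con. The level averaged 69.1 ± 7.75 CPM in KO and 85.3 ± 1.09 CPM in Con (SD, n = 3 each). This is a log2 fold change of -0.30 (SE 0.09, 95% interval -0.52 to -0.09, adjusted p = 0.0138), a 1.23-fold lower level in KO. This is a small change for these data, since 81.1% of genes tested changed by as much or more and 41.8% had a log2 fold change as low or lower. Without Con replicate 3 the adjusted p was 0.0596 at a log2 fold change of -0.28. It was 0.0474 without Con replicate 2 and 0.045 with Con replicates 2 and 3 summed, close to the threshold.

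Papola, the gene named in the knockout label, did not show a drop at the level of the whole gene. Its 2440 to 2929 counts per KO library, against 3642 to 3779 per Con library, came to 342.1, 361.3 and 314 CPM in KO replicates 1, 2 and 3, against 284.2, 297 and 291.3 CPM in Con replicates 1, 2 and 3, after TMM scaling. The groups did not overlap on that scale, on which Papola was 1.17-fold higher in KO (log2 fold change 0.22, SE 0.08, 95% interval 0.04 to 0.41, adjusted p = 0.0291). The adjusted p was 0.0614 to 0.0814 without KO replicate 1 or 2 or any 1 of the Con replicates. Scaled by library totals, the values were 299.8, 325.2 and 274.9 CPM in KO, against 332.4, 330.4 and 323.6 CPM in Con, KO replicate 2 fell within the range of Con, and the log2 fold change was -0.13 (adjusted p = 0.187). Both its direction and its call thus depended on the scaling, and a change of its size or larger was seen in 86.3% of genes tested. Under each of the 5 scalings run it lay above the median of all genes by 0.28 on the log2 scale. A scaling shifts all genes nearly alike, so these are not 5 separate results. Counts are per gene, and which exons the knockout removes is not given, so these values are no check of the genotype, and every direction here is between libraries as labelled.

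**Figure D1:**
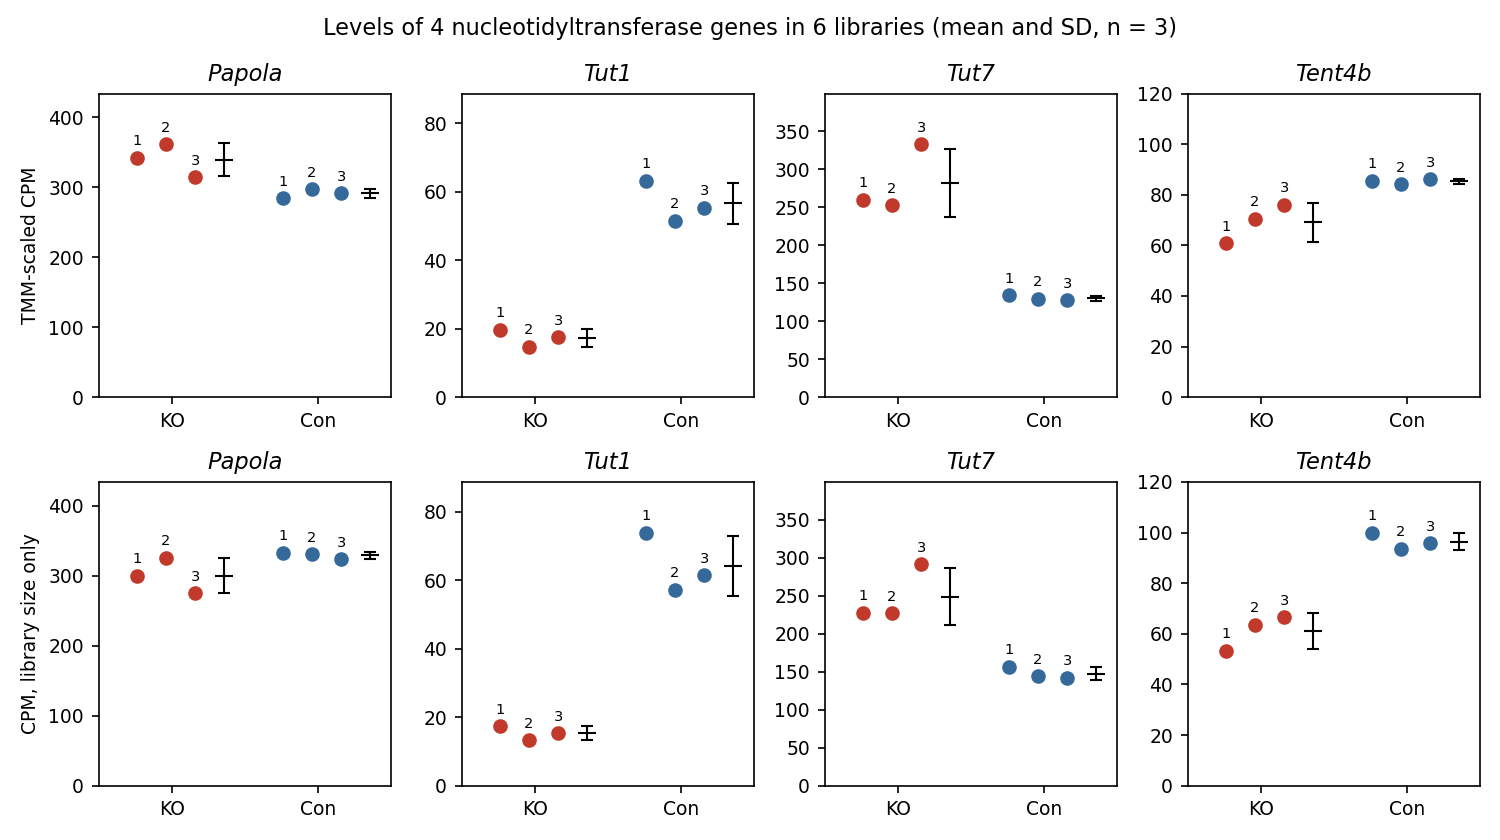
Level of each gene in each library, in counts-per-million, with TMM scaling (upper row) and with library size as the only scaling (lower row). Points are libraries, numbered by replicate, in KO (left) and Con (right), and bars are the mean and SD (n = 3). Tut1 and Tut7 keep apart on both scales, and Tent4b lies lower in KO on both. The mean of Papola is higher in KO in the upper row and lower in the lower row, where its groups overlap.

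The promoters of Tut1 and Tut7, the members with the largest changes, and of Tent4b are shown. Tent4b was lower in KO too, but by far less than Tut1 (log2 fold change -0.30 against -1.71). The letters of these promoters can be compared around 1 start of each gene. The windows are the 300 bases around an annotated transcript start, in the RefSeq annotation of GRCm38.p6, and all 4 genes were matched there by gene ID. Capitals mark the letters CGGAAG (core of sites for ETS factors), CCAAT (the CCAAT box) and GGGCGG (the GC box), each searched on both strands, and no 2 matches overlap. For Tut7 and Tent4b the first of 2 listed starts is printed.
Tut1, chr19:8953582-8953881, plus strand: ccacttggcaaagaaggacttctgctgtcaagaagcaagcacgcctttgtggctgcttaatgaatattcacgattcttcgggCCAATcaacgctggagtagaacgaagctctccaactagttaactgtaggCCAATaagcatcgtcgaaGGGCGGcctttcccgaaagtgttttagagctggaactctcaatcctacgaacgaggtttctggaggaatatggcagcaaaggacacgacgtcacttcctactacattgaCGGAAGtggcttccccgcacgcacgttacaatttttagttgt
Tut7, chr13:59823061-59823360, minus strand: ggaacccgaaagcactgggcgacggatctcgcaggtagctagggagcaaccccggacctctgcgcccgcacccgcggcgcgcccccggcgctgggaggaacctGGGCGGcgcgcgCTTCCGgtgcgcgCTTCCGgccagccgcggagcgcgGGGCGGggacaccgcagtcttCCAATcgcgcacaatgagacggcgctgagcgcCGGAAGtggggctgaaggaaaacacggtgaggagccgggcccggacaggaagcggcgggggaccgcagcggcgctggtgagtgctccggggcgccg
Tent4b, chr8:88198963-88199262, plus strand: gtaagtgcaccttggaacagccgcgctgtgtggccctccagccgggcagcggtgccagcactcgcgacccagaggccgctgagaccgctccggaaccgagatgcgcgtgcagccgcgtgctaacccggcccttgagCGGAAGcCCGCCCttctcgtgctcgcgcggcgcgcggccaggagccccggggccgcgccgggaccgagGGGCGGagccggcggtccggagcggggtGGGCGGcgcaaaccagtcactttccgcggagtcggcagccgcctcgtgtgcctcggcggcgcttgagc
The Tut1 window holds 2 CCAAT matches, 1 CGGAAG and 1 GGGCGG. The Tut7 window holds 1 CCAAT, 3 CGGAAG and 2 GGGCGG, and the other Tut7 start has the same counts. Its window, chr13:59823098-59823397, overlaps most of the printed one, and the matches are the same ones. The printed Tent4b window holds 1 CGGAAG, 3 GGGCGG and no CCAAT. The window of the other Tent4b start, chr8:88199632-88199931, holds 6 GGGCGG and neither CGGAAG nor CCAAT, so the CGGAAG match belongs to 1 of its 2 starts. None of the 4 motifs searched, which include the E-box CACGTG, is in the Papola window, and none of the windows of the 4 genes holds CACGTG. Among 32851 windows of this length, 37.4% hold CCAAT, 16.9% CGGAAG, 35.7% GGGCGG and 7.15% CACGTG on either strand. The Tut1 window is the poorest in G and C, at 48.3% of bases, against 74.3% and 73.3% for the 2 of Tut7, 75.0% and 81.0% for the 2 of Tent4b and 68.3% for Papola. Letters in a window are a description and show no binding.

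Ratios between 2 members within a library do not depend on any scaling, and these set the members apart in both groups of libraries. The ratio of Tut1 to Tut7 counts was 0.076, 0.0582 and 0.0526 in KO replicates 1, 2 and 3, against 0.471, 0.398 and 0.433 in Con replicates 1, 2 and 3. It was 7.02-fold lower in KO (difference of mean log2 ratios -2.81). For each Tut1 count there were 17.3, 24.6 and 17.9 Papola counts in KO, against 4.5, 5.77 and 5.27 in Con, which is 3.81-fold more in KO. The ratio of Papola to Tut7 moved down, with 1.32, 1.43 and 0.943 in KO, against 2.12, 2.3 and 2.28 in Con. KO replicate 3 was the one library in which Tut7 had more counts than Papola. The ratio of Papola to Tent4b was 5.63, 5.12 and 4.13 in KO, against 3.32, 3.53 and 3.38 in Con, 1.44-fold higher in KO. Tut7 to Tent4b was 2.65-fold higher and Tut1 to Tent4b 2.64-fold lower in KO. In all 6 pairs the groups did not overlap. After TMM scaling 84.5% of single genes tested did not overlap either. The share over other pairs of genes was not computed, so this count is only a description. Each pair had the smallest p that 3 against 3 libraries allow (two-sided exact permutation test, p = 0.1, and 0.1 after Benjamini-Hochberg adjustment over the 6 pairs), so no pair could pass 0.05 in this test.

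Of the 14 genes on the list of poly(A) polymerases and terminal nucleotidyltransferases, 7 were in the table and tested, the 4 members and Tent2, Tent4a and Tent5a. The other 7 (Papolb, Papolg, Tut4, Tent5b, Tent5c, Tent5d and Mtpap) were not analysed here. Of the 7 tested, 2 rose (Papola and Tut7) and 3 fell (Tut1, Tent4b and Tent4a), with a median log2 fold change of -0.09, beside -0.06 for all genes tested. With library size only 1 rose and 4 fell, Papola no longer passing and Tent2 passing as lower, with upper quartile scaling 1 rose and 3 fell, and with median of ratios scaling 2 rose and 2 fell. Read against the 82% of all genes that were called, 5 of 7 is no excess, and the count was 3 without KO replicate 2, 3 without Con replicate 2, 2 without Con replicate 3 and 3 with Con replicates 2 and 3 summed. Tent4a, the close paralog of Tent4b, had 27.2, 32.0 and 34.9 CPM in KO replicates 1, 2 and 3, against 35.8, 38.4 and 41.0 CPM in Con replicates 1, 2 and 3. Its log2 fold change of -0.29 (SE 0.11, adjusted p = 0.0367) is close to that of Tent4b, but its adjusted p was 0.0801 under median of ratios scaling, 0.117 with DESeq2, 0.109 with Con replicates 2 and 3 summed and 0.0615 to 0.164 without KO replicate 1 or 2 or Con replicate 2 or 3. Tent2, a cytoplasmic poly(A) polymerase also called GLD2, had 69.9, 80.8 and 80.3 CPM in KO, against 75.7, 88.5 and 81.9 CPM in Con, and the groups overlapped (log2 fold change -0.09, 95% interval -0.31 to 0.12, adjusted p = 0.388). Scaled by library totals alone, Tent2 passed the threshold as lower (-0.45, adjusted p = 0.00124). Tent5a, which extends tails of messages for secreted proteins, spread widely in KO, at 83.6, 103.6 and 121.6 CPM, and the groups overlapped, since Con had 94.5, 92.1 and 88.6 CPM (log2 fold change 0.16, 95% interval -0.12 to 0.45, adjusted p = 0.246). Without KO replicate 1 it passed as higher (0.29, adjusted p = 0.0195).

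Within the summed counts of these 7 genes the make-up shifted toward Tut7. Tut7 took 30.6% ± 3.28 of them in KO and 16.8% ± 0.452 in Con (SD, n = 3 each), and Tut1 1.89% ± 0.353 in KO and 7.31% ± 0.802 in Con. Papola held much the same share, 39.6%, 39.5% and 32.1% in KO replicates 1, 2 and 3, against 36.8%, 38.0% and 37.7% in Con replicates 1, 2 and 3, with overlap (two-sided exact permutation test, p = 1 for 3 against 3). Tent4b took 7.51% ± 0.409 in KO and 11.0% ± 0.207 in Con. The shares of Tut7, Tut1, Tent4b, Tent4a and Tent2 did not overlap between the groups (exact p = 0.1 each, the smallest that 3 against 3 libraries allow). For scale, the TMM-scaled levels of 84.5% of all genes tested did not overlap. The level of Tent2 did overlap on that scale, and that of Papola did not. Levels and shares are unlike measures, so the count of shares is only a description. The share of Tent5a did overlap (exact p = 0.6). Shares of 1 sum are tied to each other, so a rise of 1 gene lowers the rest.

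**Figure D2:**
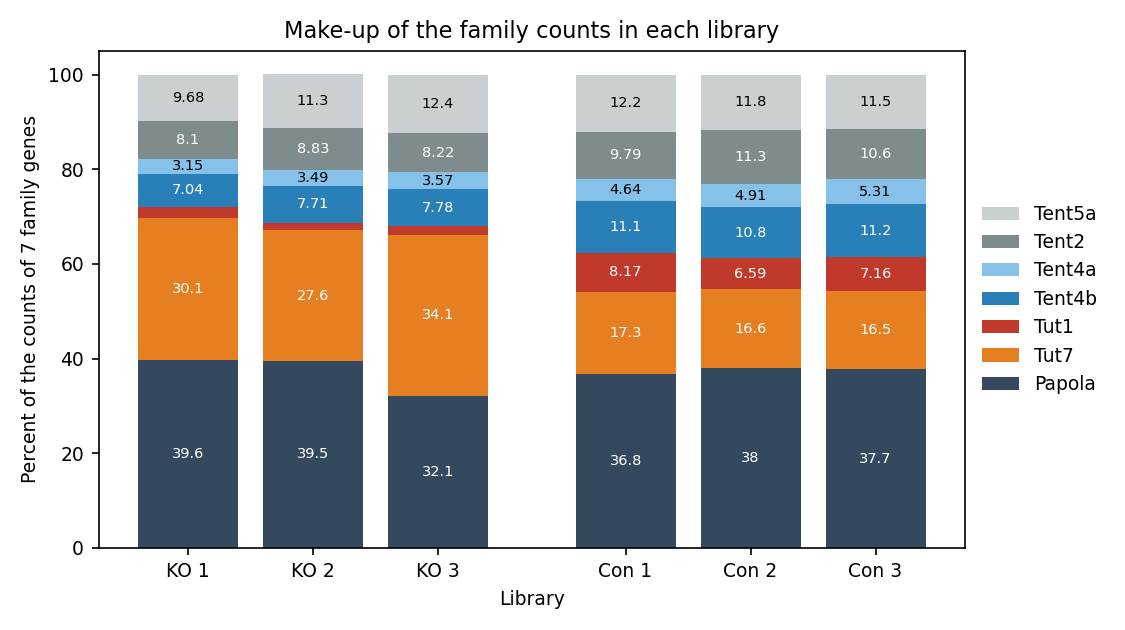
Make-up of the summed counts of the 7 family genes, in percent, in each library labelled KO (left) and Con (right). The orange part, Tut7, spans 27.6% to 34.1% in KO and 16.5% to 17.3% in Con, and the unlabelled red part in KO, Tut1, spans 1.6% to 2.29% there and 6.59% to 8.17% in Con.

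Levels of different genes were compared per kilobase of the longest protein-coding transcript in GENCODE M21. Papola was the most abundant of the 7 in both groups, at 77.4 ± 5.43 CPM per kilobase in KO and 66.4 ± 1.46 in Con (SD, n = 3 each). In KO the order went on with Tut7 (48.0), Tent2 (25.0), Tent5a (18.2), Tent4b (14.9), Tent4a (6.60) and Tut1 (6.29 CPM per kilobase), where Tent5a and Tent4b overlapped over libraries, as did Tent4a and Tut1. In Con the order after Papola was Tent2 (26.6), Tut7 (22.2), Tut1 (20.6), Tent4b (18.4), Tent5a (16.2) and Tent4a (8.08 CPM per kilobase), where Tut7 and Tut1 overlapped. By mean, Tut1 thus stood last of the 7 in KO, and in Con above Tent4b, Tent5a and Tent4a. With the median transcript length in place of the longest, Tut7 stood above Tent2 in Con as well (52.2 against 43.0 CPM per kilobase), so that order depends on the isoform assumed.

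**Figure D3:**
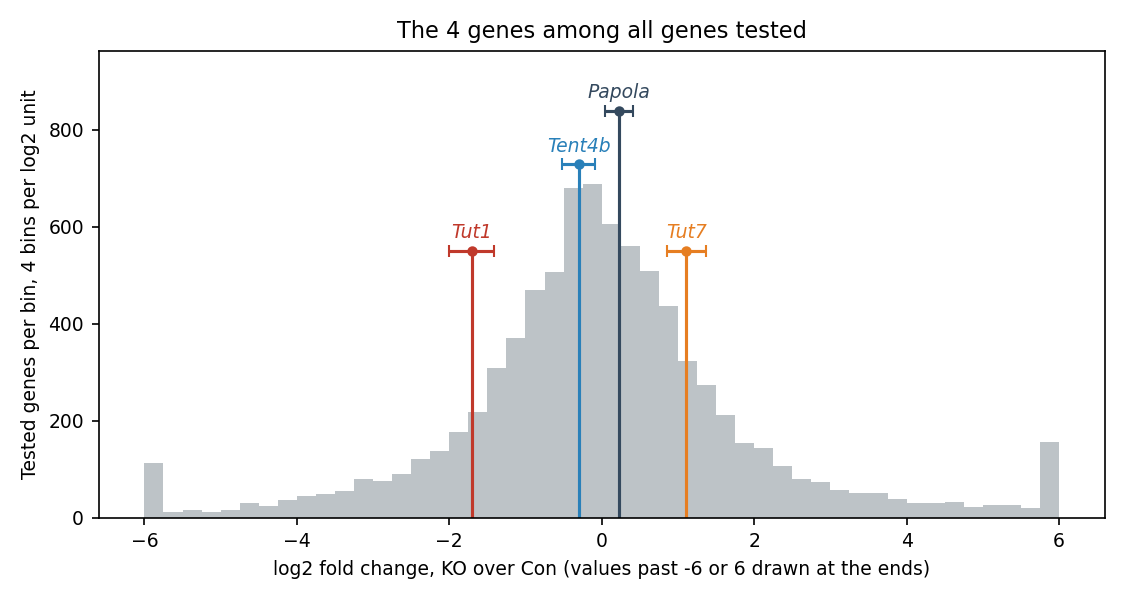
Distribution of log2 fold changes (KO over Con) over the 8358 genes tested, in bins of equal width, with the 4 members as lines topped by their 95% intervals. Papola (0.22) and Tent4b (-0.30) lie in the bulk of the distribution, Tut7 (1.11) and Tut1 (-1.71) on its shoulders.

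Partners of the enzymes went both ways, and each partner list with 3 or more tested genes held log2 fold changes of both signs. The counts below stand beside 39.6% of all tested genes higher and 42.4% lower after TMM scaling, and 29.8% higher and 53.6% lower with library size only. After TMM scaling none of these 6 lists had a larger share of called genes than the 82% of all genes tested, so their counts show no excess. Papola works with the cleavage and polyadenylation complex, of which 10 of 17 listed genes were tested, and 2 rose and 5 fell (median log2 fold change -0.19). Sympk, the scaffold symplekin, had the smallest p among those that fell (-0.74, SE 0.08, adjusted p = 1.29e-05), before Cpsf1, a subunit of the complex that binds the polyadenylation signal (-0.60, SE 0.09). Nudt21, a subunit of cleavage factor I that influences the choice of poly(A) site, rose (0.42, SE 0.09, adjusted p = 0.00222). Fip1l1, which binds poly(A) polymerase, rose by 0.28 (SE 0.08) after TMM scaling but was at -0.08 with library size only. With library size only 0 of the 10 rose and 7 fell. Of 3 poly(A)-binding protein genes tested, Pabpc4 rose (0.44, SE 0.11, adjusted p = 0.00373) and the other two did not pass, whereas with library size only 0 rose and 2 fell.

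For Tut1, 7 of 10 genes listed as partners of U6 RNA or cofactors of Star-PAP were tested, and 1 rose and 4 fell (median -0.37, but -0.72 with library size only, where 1 rose and 6 fell). Prpf31, a protein of the U4/U6 particle, fell (-0.81, SE 0.09, adjusted p = 1.53e-05), as did Pip5k1a, the phosphoinositide kinase that activates Star-PAP in human cells (-0.72, SE 0.08, adjusted p = 2.52e-05). Mepce, the capping enzyme of the RNA 7SK that also associates with U6, was the one that rose (1.10, SE 0.16, adjusted p = 0.000179). Of 3 messages reported as Star-PAP targets in human cells only Nqo1, a quinone reductase, was tested. It fell (-2.44, SE 0.23, adjusted p = 7.15e-06), to 7.60, 6.29 and 7.72 CPM in KO replicates 1, 2 and 3, against 26.9, 45.3 and 45.0 CPM in Con replicates 1, 2 and 3.

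For Tent4b, 13 of 18 genes of the nuclear exosome and its adaptors were tested, and 3 rose and 4 fell (median 0.03, but -0.32 with library size only, where 3 rose and 8 fell). Exosc5, a ring subunit, rose (1.05, SE 0.10, adjusted p = 8.42e-06), and so did Zcchc8, an adaptor of the helicase MTR4 (0.63, SE 0.10). Dis3, a catalytic ribonuclease of the exosome (-0.68, SE 0.11, adjusted p = 0.000197), and Mphosph6 (-0.53, SE 0.13) fell. Deadenylases remove tails, and their list also holds subunits and related proteins whose activity on tails is not shown here. Of this list 13 of 17 genes were tested, with 6 higher and 3 lower (median 0.14). With library size only 2 were higher and 6 lower (median -0.22). Both subunits of the PAN2-PAN3 deadenylase rose under either scaling, Pan2 by 0.82 (SE 0.09) and Pan3 by 0.83 (SE 0.11) on the TMM scale. Angel1 (-1.48, SE 0.23) and Cnot1, the scaffold of the CCR4-NOT complex (-0.30, SE 0.08), fell.

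For Tut7, 9 of 16 genes that lead uridylated RNA to decay were tested, and 3 rose and 2 fell (median 0.08, but -0.27 with library size only, where 3 rose and 5 fell). Lin28a, the RNA-binding protein that recruits TUT7 and TUT4 to let-7 precursors, stood far apart from the rest of the list. It had 1410, 942 and 726 counts in KO replicates 1, 2 and 3, against 62, 35 and 35 in Con replicates 1, 2 and 3. The groups did not overlap, and the log2 fold change was 5.18 (SE 0.28, adjusted p = 3.12e-07), with 124.8 ± 36.4 CPM in KO and 3.42 ± 1.11 CPM in Con (SD, n = 3 each). Only 4.28% of genes tested changed by as much or more. Its paralog Lin28b had 0 counts in all 3 KO libraries and 3 to 7 counts in each Con library, too few to be tested. Within KO the library with the most Lin28a, replicate 1, was not the one with the most Tut7, replicate 3. With 3 libraries per group, a relation between the 2 genes was not tested. Lsm4, a subunit of the ring that binds oligouridylated ends, rose (1.03, SE 0.09, adjusted p = 3.57e-06). Dis3l2, the exonuclease that degrades uridylated RNA, fell (-0.56, SE 0.12, adjusted p = 0.00146), as did the decapping activator Patl1 (-0.36, SE 0.09).

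**Figure D4:**
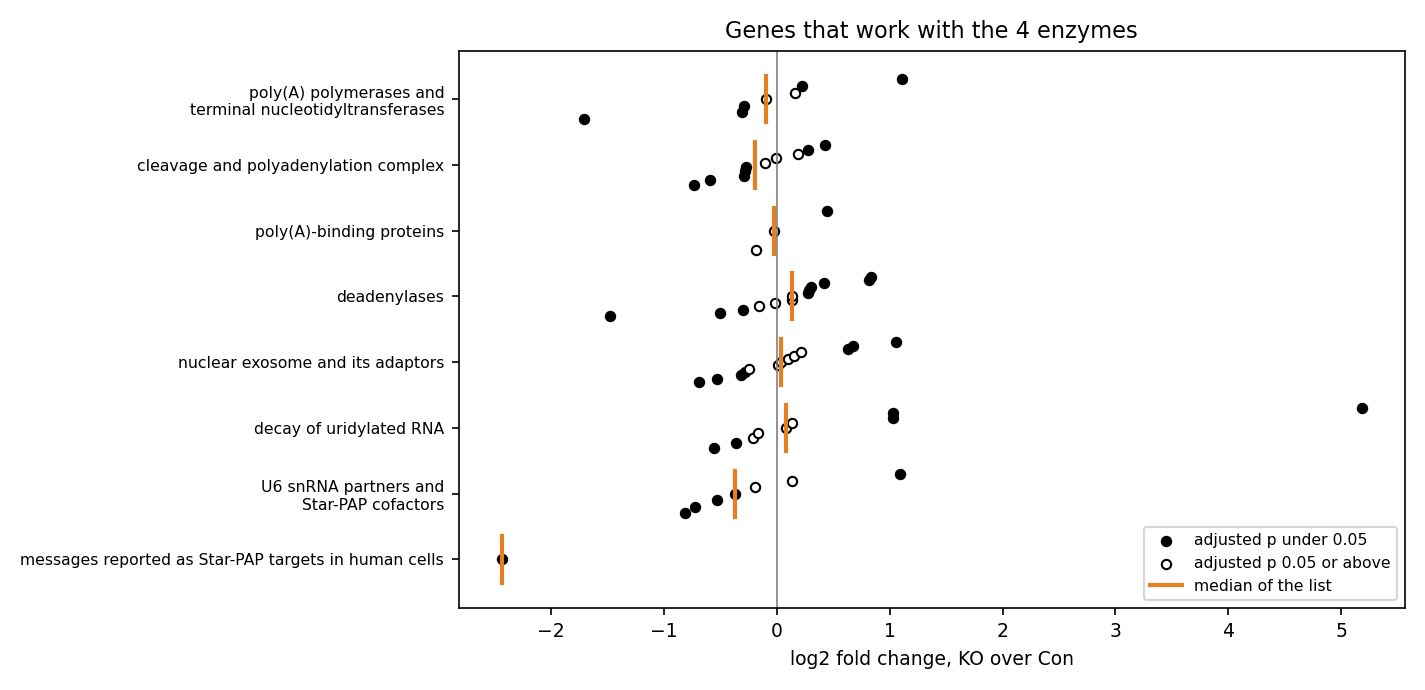
Log2 fold change (KO over Con) of each tested gene of 8 lists, the family and 7 lists of partners, with 1 point per gene. Filled points passed an adjusted p of 0.05, open points did not, and orange bars are list medians. The medians lie between -0.37 and 0.14, except that of the list that holds Nqo1 alone, and Lin28a is the point near 5.

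Genes whose pattern over the 6 libraries was most like that of each member were found by the root mean square difference of centred log2 CPM, a description with no test. Among the closest to Papola were Ywhae (0.0253) and Septin7 (0.0384 log2 units), and 257 genes lay within 0.1 of it. Such a number also depends on how many genes changed by a like amount and on counting noise. It therefore does not rank how unusual a pattern is. Tut1 had 8 genes within 0.1. The nearest were Pcyox1l (0.0673), Pdk1 (0.0714) and Alg10b (0.0878). Pcyox1l had 19.8, 15.4 and 17.4 CPM in KO replicates 1, 2 and 3, against 63.6, 48.7 and 50.1 CPM in Con replicates 1, 2 and 3, so it shared with Tut1 a highest value in replicate 1 of either group. Tut7 had 57 genes within 0.1, led by Ppp1r15b (0.0263), Klf11 (0.0427) and Map3k11 (0.0452), all of which stood highest in KO replicate 3. Tent4b had 188, led by Pinx1 (0.0252), Nudt9 (0.0391) and Sf3b4 (0.0411), each lowest in KO replicate 1. All these genes were picked by likeness over the same 6 libraries, so shared high or low replicates follow largely from the choice.

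**Figure D5:**
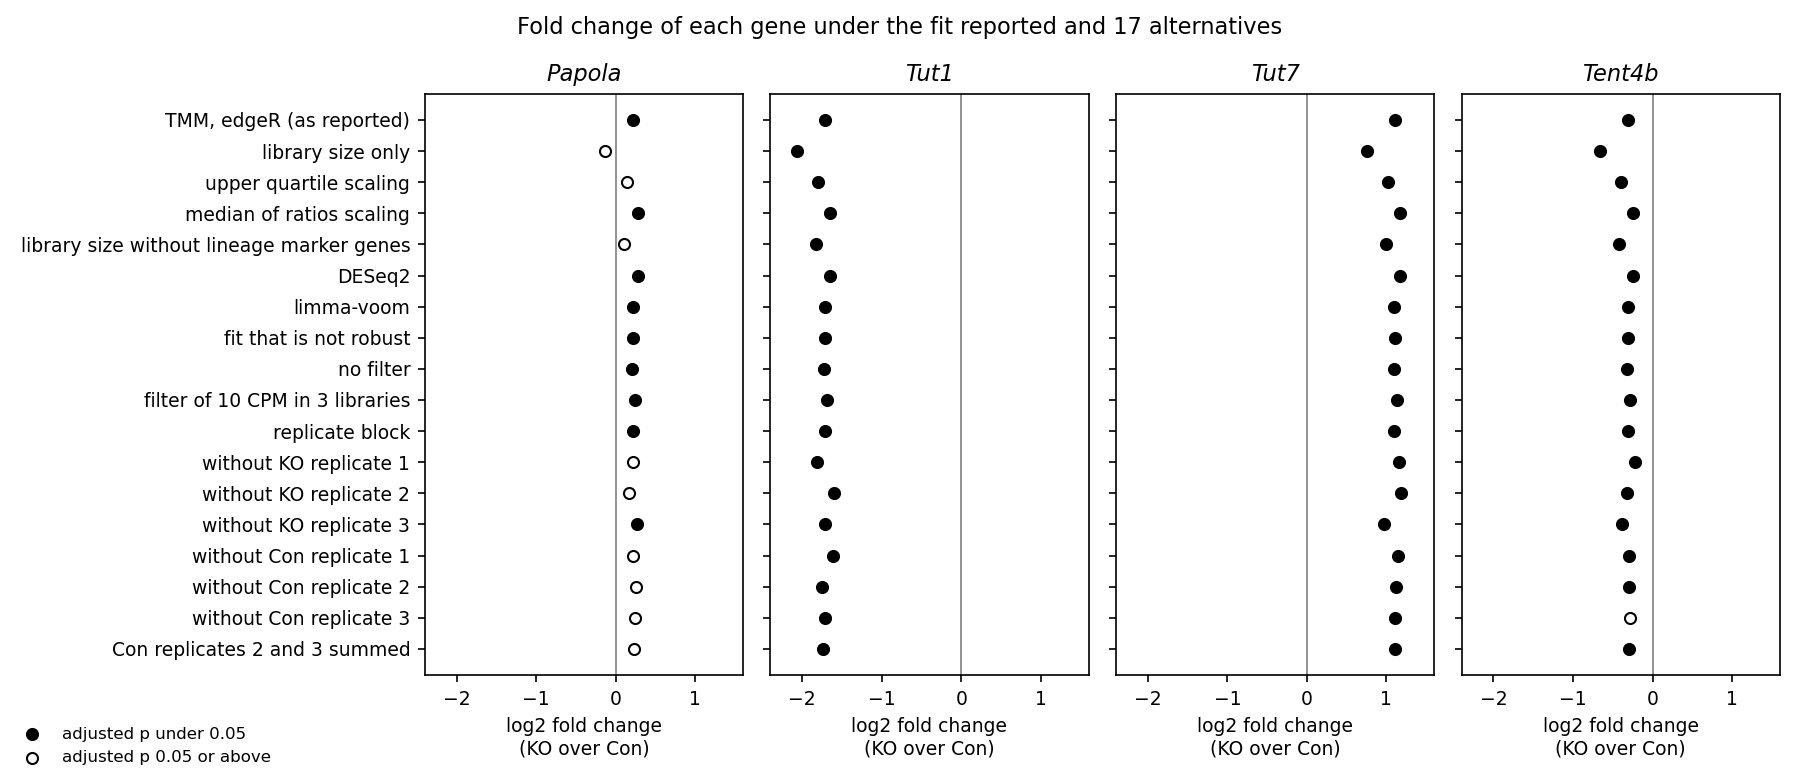
Log2 fold change (KO over Con) of the 4 members under the fit reported and 17 alternatives, with filled points where the adjusted p was under 0.05. Tut1 spans -2.07 to -1.61 and Tut7 0.75 to 1.18 with every point filled. Tent4b spans -0.66 to -0.22 with 1 open point, and Papola -0.13 to 0.28 with 9 open points.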

How the data were processed

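RNA was extracted with TRIzol and libraries were made with a BGI mRNA kit, per the labels' protocols. Values are the authors' estimated counts, unscaled, with a column for each library, per the file headers. What aligned and counted the reads is not given in the sources used here. A human build, GRCh38, stands in the submitters' processing notes, while gene IDs are those of mouse (9257 of 9295 found in RefSeq GRCm38.p6). Fractional counts occur in 1449 genes. Counts were rounded before any test, and 0 columns were left unused. KO was compared with Con in edgeR 4.0.16 under R 4.3.3 (TMM, filterByExpr defaults, robust quasi-likelihood test, two-sided, no covariate), with adjustment over 8358 genes and a threshold of 0.05. At 1 CPM a gene rests on 7.77 to 13.2 counts per library. The code of the test was tried on simulated counts with far fewer changed genes than here, which does not measure its error rates in these data. Ratios used counts plus 0.5, and likeness CPM plus 0.5. Alternatives were DESeq2 1.42.0, limma-voom (limma 3.58.1), 4 other scalings, a fit that is not robust, 2 other filters, a replicate block, leaving out each library, and Con replicates 2 and 3 summed. Genes were named by rule: the members, all tested family genes, the 2 smallest p in each direction per partner list, and the 3 genes most like each member, of which 1 is not reported here. The members and lists were chosen with earlier results of these data known, so list counts are descriptions.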

Additional observations from a re-analysis of the deposited data

How the results depend on the processing

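Tut1 and Tut7 kept their direction and their call under all 17 alternatives (log2 fold change -2.07 to -1.61, and 0.75 to 1.18). Tent4b kept its direction in all 17 (-0.66 to -0.22) and lost its call without Con replicate 3 alone (adjusted p 0.00405 to 0.0596 over leave-one-out fits, -0.38 to -0.22). Papola turned to -0.13 with library size only. Its call was lost with upper quartile scaling (0.14), with marker genes of neutrophils, erythroid cells and macrophages taken out of the library size (0.11), with Con replicates 2 and 3 summed (0.24, adjusted p = 0.0868), and in 5 of 6 leave-one-out fits, the exception being the fit without KO replicate 3 (0.17 to 0.27, adjusted p 0.00857 to 0.0814). Library size alone moved the median of all genes by -0.35 and made 35.7% of called genes higher in place of 48.3%. The family had 5 called genes, 4 or 5 under other scalings and tools, 3 with Con replicates 2 and 3 summed, and 2 to 5 over leave-one-out fits. All 6 ratios kept their sign under their 9 alternatives. No pairing of the samples by replicate number was visible (correlation of deviations 0.0187, 0.0287 and 0.00116 for numbers 1, 2 and 3). For unlike numbers it was -0.0538 to 0.0514. Such values cannot exclude a pairing of the samples. A replicate block gave 0.22, -1.71, 1.10 and -0.31 for Papola, Tut1, Tut7 and Tent4b with no call of these 4 genes changed. The lowest count of a member in any library was 119.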
